A study of Mus musculus with 15 samples.

Results

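Gp49a, Lilrb4, Pirb, Pilra, Lair1, Sirpa and Lilra5 encode leukocyte immunoglobulin-like receptors and related paired receptors of the myeloid cell surface. These 7 genes, of 38924 listed, were selected by name from earlier results of the same libraries, in which Gp49a and Lilrb4 were among the genes with the clearest CD45hi enrichment. The difference between CD45hi and CD45lo cells is therefore described for them and not tested, whereas the effect of diet on them is tested. All 7 passed the filter on low counts. The working label of the set was inhibitory receptors, but the coding sequences of Gp49a and Lilra5 lack the inhibitory motif in their tails, so the set is called paired receptors here.

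The libraries are RNA-seq of CD11b+ myeloid cells sorted by FACS from the brains of male, wild type C57BL/6J mice at 12 months of age, with CD11b marking myeloid cells and the level of the leukocyte protein CD45 parting CD45lo cells, mostly microglia, from CD45hi cells. Mice ate a chow diet (CD) throughout or a western diet (WD, with added fructose syrup and more milk fat) from 2 months of age, so that diet covers most of adult life. There were 4 CD CD45hi, 4 CD CD45lo, 3 WD CD45hi and 4 WD CD45lo libraries, with total expected counts of 11951412 to 17912272 per library. Mice were perfused and the olfactory bulb and cerebellum removed before sorting. The labels do not say whether each library holds 1 mouse, and numbers carried by the data files hint that CD45hi and CD45lo libraries were in part sorted from the same mice, so p-values measure only the spread between these samples.

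Inhibitory members of these families carry short motifs around a tyrosine in the cytoplasmic tail (immunoreceptor tyrosine-based inhibitory motifs, ITIMs). Src-family kinases phosphorylate the tyrosine, and the phosphatases SHP-1, SHP-2 or SHIP-1 then dock there and restrain activation of the cell. Activating relatives have short tails and pair with adaptors such as FcRγ or DAP12, and many of these genes lie in clusters of near-identical copies.

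Gp49a and Lilrb4 are such a pair of neighbours. In the GENCODE M21 annotation of mm10 Gp49a is listed as Lilr4b at chr10:51480632-51486703 and Lilrb4 as Lilrb4a at chr10:51490956-51496611, both on the plus strand with 4252 bases between them. Their coding regions have 303 and 335 codons, and 871 of 907 aligned bases (96.0%) are identical. A stretch of coding exon sequence from bases 212 to 301, counted from the start codon, is shown because it holds 11 of their differences, which are in capitals. Gp49a lies here at chr10:51481281-51481370 and Lilrb4 at chr10:51491575-51491664.
Gp49a: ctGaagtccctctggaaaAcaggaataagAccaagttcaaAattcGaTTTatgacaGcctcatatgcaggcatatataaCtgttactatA
Lilrb4: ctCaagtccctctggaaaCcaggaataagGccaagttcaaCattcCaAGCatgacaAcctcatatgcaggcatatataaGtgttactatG

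Toward the end of the coding region Gp49a has 2 bases without a partner in Lilrb4, after which the reading frames of the genes differ. The coding sequence from base 822 is shown because it holds this change, with the additional bases of Gp49a in capitals and, for Lilrb4, the stretch beyond the last aligned base in capitals.
Gp49a: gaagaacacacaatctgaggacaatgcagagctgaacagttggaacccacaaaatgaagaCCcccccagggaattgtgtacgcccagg
Lilrb4: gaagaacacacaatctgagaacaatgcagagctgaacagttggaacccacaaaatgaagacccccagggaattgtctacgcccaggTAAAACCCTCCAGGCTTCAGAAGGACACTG

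Each coding sequence was translated and searched for the ITIM pattern, which is isoleucine, leucine, valine or serine, any residue, a tyrosine, any pair of residues, and isoleucine, leucine or valine. Beyond the most hydrophobic stretch of 19 codons, taken as the membrane-spanning segment, Pirb and Sirpa had 3 matches each, Lilrb4 and Lair1 had 2 each, and Pilra had 1. Gp49a, with 43 codons after that stretch, and Lilra5, with 28, had 0. The pattern is short and occurs somewhere in the coding sequence of 49.1% of 21584 protein-coding genes, so a match is a description of letters only. One match per gene is shown with the tyrosine codon in capitals, since the motif is what separates the 5 genes from the other 2.
Lilrb4, codon 300, chr10:51496021-51496038: attgtcTACgcccaggta
Pirb, codon 794, chr7:3712786-3712803, minus strand: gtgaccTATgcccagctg
Pilra, codon 267, chr5:137823571-137823588, minus strand: atcgtgTATgcttccatc
Lair1, codon 228, chr7:4009790-4009807, minus strand: gtgacgTATatccagctg
Sirpa, codon 440, chr2:129629954-129629971: atcacaTACgcagacctg

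Similar copies bear on how the reads were counted. The expected count is RSEM's estimate, which divides a read among the genes it fits. Of the 75-base windows of the longest coding transcript of Gp49a, 15.9% also occur in Lilrb4, and 21.3% of those of Lilrb4 occur in other genes once a locus that reads through both genes is set aside. With that locus kept, 17.4% of the windows of Gp49a and 100% of those of Lilrb4 occur in other genes. The windows are those of GENCODE M21, which holds 1 of the 2 transcripts listed for Gp49a and 1 of the 3 for Lilrb4. The sharing under the annotation used for the deposited counts can therefore differ. Pirb shares 31.1% of its windows with other genes, among them Gm14548 (17.8%) and Pira2 (16.7%), and Pilra shares 15.8% with Zcwpw1, which overlaps it on the opposite strand and, in a library kit that does not mark strand, cannot be told apart from it there. The deposited counts of Gp49a, Lilrb4, Pirb and Pilra were not whole numbers in any of the 15 libraries, so the values of these 4 genes are uncertain in their split. Lilra5, Lair1 and Sirpa shared no window and had whole counts in every library.

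Levels can be set side by side between genes per transcript length, in the length-scaled unit TPM, which sums to the same total in every library. In the 7 CD45hi libraries Gp49a was the highest of the 7 genes in every library, at 705 ± 185 TPM (SD, n = 7), followed by Sirpa at 393 ± 41.6 TPM and Lair1 at 341 ± 82.1 TPM. Lilrb4 was at 296 ± 70.3 TPM, Pirb at 144 ± 40.1 TPM, Pilra at 47.8 ± 26.8 TPM and Lilra5 at 23.4 ± 11.2 TPM. The libraries of Gp49a lay above all libraries of Sirpa, while every other pair of neighbours in this order overlapped.

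In the 8 CD45lo libraries the order was different. Sirpa was highest in every library at 849 ± 78.9 TPM (SD, n = 8) and Lair1 was next at 608 ± 44.2 TPM, without overlap between them. Gp49a followed at 57.1 ± 11.8 TPM, then Pirb at 34.8 ± 8.22 TPM, Pilra at 29.9 ± 8.48 TPM, Lilrb4 at 27.5 ± 8.28 TPM and Lilra5 at 12.8 ± 1.69 TPM. Lair1 was apart from Gp49a, and from Gp49a down each gene overlapped the next. Gp49a and Lilrb4 together made up 44.2 to 59.4% of the summed TPM of the 7 genes in CD45hi libraries and 3.87 to 7.48% in CD45lo libraries. Sirpa and Lair1 made up 31.2 to 45.5% and 87.2 to 91.6%.

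**Figure D1:**
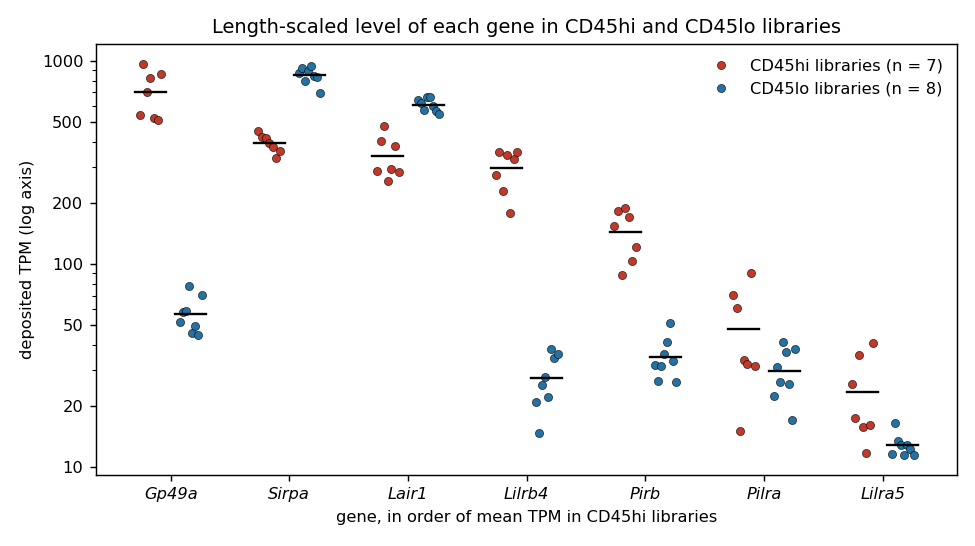
TPM of each gene on a log axis in the 7 CD45hi and 8 CD45lo libraries, with points for libraries and bars for means. Gp49a leads in CD45hi cells at 705 TPM and Sirpa leads in CD45lo cells at 849 TPM.

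Values within a gene are given as library-scaled counts (cpm) after TMM normalization, with fold changes from the edgeR fit of all 15 libraries. Gp49a, an ITIM-less member of the gp49 family found on macrophages and mast cells, had 436, 730, 558 and 713 cpm in the 4 CD CD45hi libraries and 30.4, 35.2, 33.3 and 43.3 cpm in the 4 CD CD45lo libraries. It had 449, 441 and 712 cpm in the 3 WD CD45hi libraries and 25.1, 27.3, 25.9 and 42.8 cpm in the 4 WD CD45lo libraries. Every CD45hi library was far above every CD45lo library, and the diets overlapped in both cell types. The fitted difference was 17.1-fold in CD-fed mice (log2 fold change 4.10, SE 0.25) and 17.6-fold in WD-fed mice (4.14, SE 0.26).

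Lilrb4, an inhibitory receptor of myeloid cells that binds ligands such as integrin αvβ3 and fibronectin, had 241, 291, 199 and 330 cpm in CD CD45hi and 13.3, 9.96, 16.2 and 17.02 cpm in CD CD45lo libraries. In WD-fed mice it had 165, 314 and 323 cpm in CD45hi and 13.6, 23.8, 22.1 and 24.2 cpm in CD45lo libraries. The cell types did not overlap on either diet, and 3 of the 4 WD CD45lo libraries lay above all CD CD45lo libraries. The difference was 18.8-fold in CD-fed and 12.8-fold in WD-fed mice. In WD CD45hi, replicate 1 had the lowest Lilrb4 and the lowest sum of 5 border macrophage markers, 616 cpm against 1623 and 2337 cpm. Its monocyte sum was the lowest too, 541 cpm against 756 and 829 cpm, and its lymphocyte sum the highest, 447 cpm. The part of these cells was not tested. With the counts of Gp49a and Lilrb4 summed, which does not depend on how their shared reads were split, the pair differed 17.6-fold in CD-fed and 15.6-fold in WD-fed mice.

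Pirb, the mouse receptor for MHC class I and for myelin proteins that limit neurite growth, had 318, 305, 170 and 411 cpm in CD CD45hi and 46.7, 41.7, 43.3 and 50.3 cpm in CD CD45lo libraries. In WD-fed mice it had 335, 222 and 246 cpm in CD45hi and 55.7, 69.5, 51.3 and 47.2 cpm in CD45lo libraries. The groups were apart on each diet, by 6.62-fold and 4.79-fold. The CD CD45hi library with the lowest Pirb, replicate 3, also had the lowest summed level of 7 neutrophil markers in its group, 1356 cpm against 2478 to 3029 cpm in the others. That library also had the lowest monocyte (515 cpm) and dendritic (136 cpm) sums and the highest microglia (6060 cpm) and lymphocyte (494 cpm) sums of its group. The WD CD45hi library with the highest Pirb, replicate 1, had 1219 cpm of neutrophil markers, within the 1188 to 1610 cpm of its group. Its monocyte sum, 541 cpm, was the lowest of its group. The part of these cells in the level of Pirb was not tested.

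Lilra5 and Pilra were lower and more scattered. Lilra5, an activating receptor that signals through FcRγ, had 36.3, 23.1, 50.1 and 24.2 cpm in CD CD45hi, 11.8, 17.7, 13.9 and 12.7 cpm in CD CD45lo, 17.6, 24.8 and 59.8 cpm in WD CD45hi and 11.3, 12.7, 12.8 and 12.6 cpm in WD CD45lo libraries. The libraries did not overlap on this scale, but they did on the TPM scale on both diets, and the SD in WD CD45hi libraries was 66.3% of the mean. The difference was 2.38-fold in CD-fed and 2.76-fold in WD-fed mice, and in the latter it rested on replicate 3 of WD CD45hi, without which the log2 fold change was 0.78 and not 1.47. As a difference of log2(TPM + 1) it was 0.70 and 0.69.

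Pilra, an inhibitory receptor for sialylated proteins, had 69.99, 59.1, 26.2 and 36.9 cpm in CD CD45hi and 13.8, 26.8, 16.1 and 21.6 cpm in CD CD45lo libraries, which overlapped. In WD-fed mice it had 35.7, 78.6 and 54.1 cpm in CD45hi and 22.6, 14.5, 14.4 and 22.7 cpm in CD45lo libraries, which overlapped on the TPM scale only. The difference was 2.46-fold in CD-fed and 3.02-fold in WD-fed mice by cpm, but 0.38 and 0.67 as a difference of log2(TPM + 1).

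Lair1 and Sirpa went the other way. Lair1, an inhibitory receptor for collagen and C1q, had 477, 489, 701 and 465 cpm in CD CD45hi and 736, 711, 691 and 748 cpm in CD CD45lo libraries. In WD-fed mice it had 533, 603 and 502 cpm in CD45hi and 726, 675, 669 and 611 cpm in CD45lo libraries. Replicate 3 of CD CD45hi reached the CD45lo range, the other CD45hi libraries did not, and on the TPM scale the groups were apart on both diets. The CD45hi level was 1.35-fold lower in CD-fed mice (log2 fold change -0.44, SE 0.13) and 1.23-fold lower in WD-fed mice (-0.30, SE 0.15).

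Sirpa, the receptor for the "do not eat me" protein CD47, had 984, 810, 865 and 912 cpm in CD CD45hi and 1444, 1592, 1313 and 1391 cpm in CD CD45lo libraries. In WD-fed mice it had 757, 807 and 833 cpm in CD45hi and 1460, 1278, 1393 and 1260 cpm in CD45lo libraries. The groups did not overlap, and CD45hi cells were 1.61-fold lower in CD-fed and 1.69-fold lower in WD-fed mice.

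**Figure D2:**
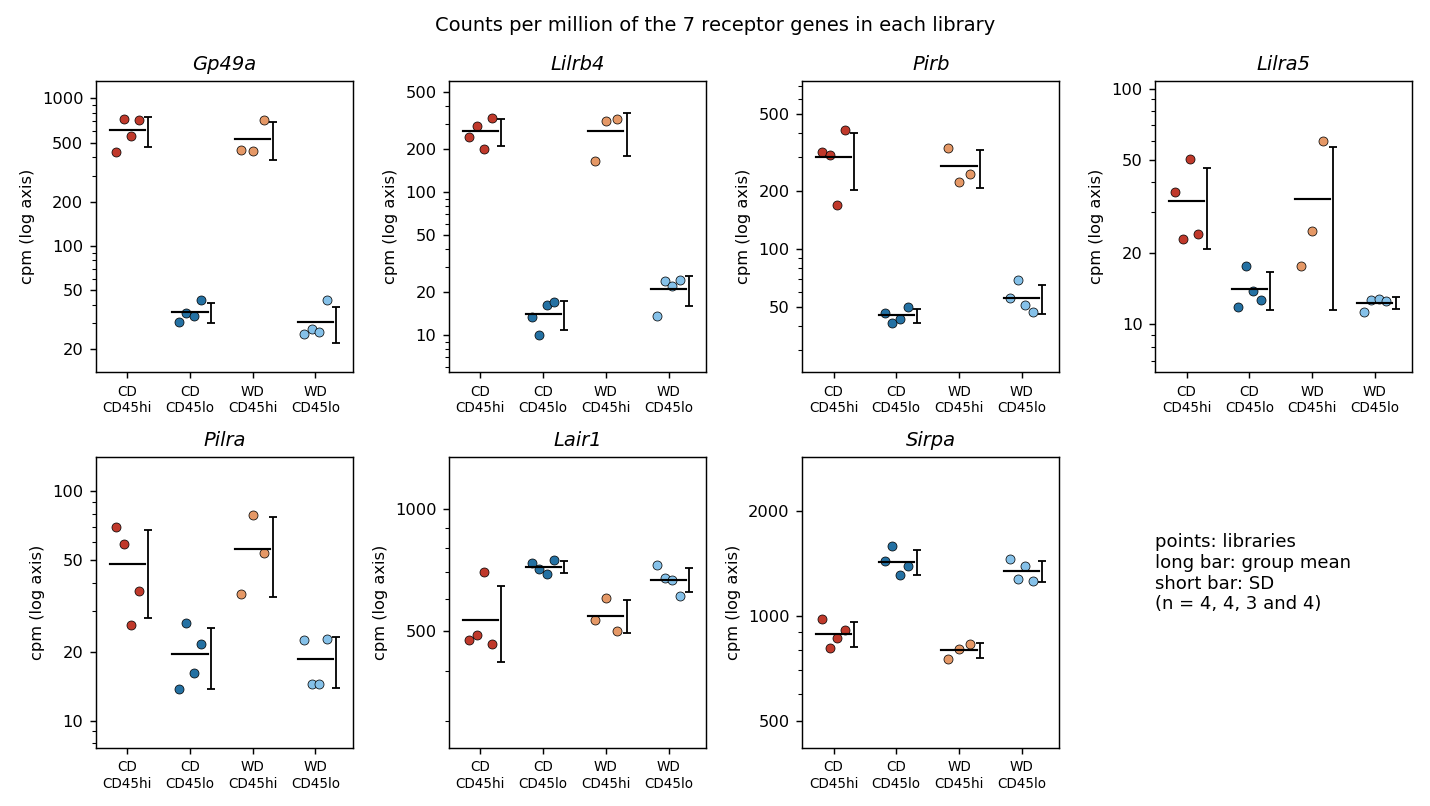
The cpm of each gene, on log axes that differ between panels, in the 15 libraries, with group means and SD (n = 4 CD CD45hi, 4 CD CD45lo, 3 WD CD45hi and 4 WD CD45lo). Gp49a, Lilrb4 and Pirb stand higher in CD45hi cells on both diets, Sirpa lower, and the diets overlap in every panel.

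In all, 4 of the 7 genes had every CD45hi library above every CD45lo library in CD-fed mice, where this held for 8.26% of the 14967 genes tested, and 5 in WD-fed mice (10% of genes). Every CD45hi library was below every CD45lo library for 1 gene in CD-fed mice, Sirpa (8.22% of genes), and for 2 in WD-fed mice, Sirpa and Lair1 (13.4% of genes). The selection used this contrast, so nothing is read from these counts. On the TPM scale the counts of genes above were 3 and 3, and of genes below 2 and 2. The share of all genes was not computed on that scale, so nothing is read from these either. The differences of log2(TPM + 1) in CD-fed and WD-fed mice kept their directions. They were 3.58 and 3.55 for Gp49a, 3.72 and 3.07 for Lilrb4 and 2.203 and 1.77 for Pirb, smaller than the log2 fold changes by cpm. They were -0.85 and -0.90 for Lair1 and -1.04 and -1.21 for Sirpa, larger in size than by cpm.

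The sorted populations differed in cell makeup markers too, which move with the same contrast. The summed level of 5 border macrophage markers was 616 to 2337 cpm in CD45hi and 53.6 to 203 cpm in CD45lo libraries, and that of 6 monocyte markers was 515 to 1048 cpm and 46.4 to 166 cpm. Neutrophil markers summed to 1188 to 3029 cpm against 554 to 837 cpm, and 4 dendritic cell markers to 116 to 288 cpm against 18.3 to 35.7 cpm. The sums do not mean that every marker rose. On each diet the test used for related genes below called 5 of 5 border macrophage and 3 of 6 monocyte markers higher. It called 5 of 7 neutrophil and 1 of 4 dendritic markers higher, and 0 in these lists lower. The 6 microglia markers were not absent from CD45hi libraries, at 5103 to 6237 cpm against 10698 to 13705 cpm, and 6 (CD) and 4 (WD) of the 6 were lower there by the test used for related genes below. The 10 lymphocyte markers overlapped in sum (261 to 494 cpm and 267 to 376 cpm), but of the 7 that could be tested 2 were higher in CD45hi cells in CD-fed and 4 in WD-fed mice, and 0 lower. The T cell gene Trbc2 and the mast cell gene Mcpt4 were at 0 in all 15 libraries, and 4 mast cell markers summed to at most 8.13 cpm. The 8 neural and vascular markers summed to 58.1 to 150 cpm in CD45hi and 42.6 to 58.0 cpm in CD45lo libraries. Of these 8, 0 were called higher on either diet and 1 was called lower in CD-fed mice. In bulk samples a change in the share of a cell type and a change in RNA per cell cannot be told apart, and the part of these cells in the levels of the receptors was not tested.

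The effect of diet on the 7 genes was not used in choosing them, and it was tested with edgeR's quasi-likelihood F test with the FDR taken over all 14967 genes. In CD45hi cells 0 of the 7 passed an FDR of 0.05, where 38 genes (0.254%) did, and 0 had an unadjusted p under 0.05. Their log2 fold changes, WD minus CD, ran from -0.19 to 0.22 and their FDR from 0.477 to 0.992, and by cpm the diets overlapped for all 7, where 5.77% of genes did not overlap. On the TPM scale Sirpa did not overlap, with 332 to 378 TPM in WD CD45hi and 393 to 454 TPM in CD CD45hi libraries. The share of all genes without overlap was not computed on that scale, so nothing is read from this. The 95% interval was narrow for Sirpa, from -0.39 to 0.07, and Lair1, from -0.27 to 0.34, so that changes of 1.5-fold lie outside both. It was wide for Lilra5, from -0.88 to 0.94, and Pilra, from -0.61 to 1.06, so that increases well past 1.5-fold lie inside both. For Gp49a it ran from -0.69 to 0.31, for Lilrb4 from -0.57 to 0.59 and for Pirb from -0.69 to 0.35.

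In CD45lo cells 0 of the 7 passed either, where 0 of 14967 genes did (0%), 123 genes had an unadjusted p under 0.05, and DESeq2 called 4 genes in this comparison, none of them among the 7. Lilrb4 was the one member with an unadjusted p under 0.05, at 14.1 ± 3.21 cpm on CD and 20.9 ± 4.96 cpm on WD (SD, n = 4 each). Its log2 fold change was 0.57 with a 95% interval from 0.02 to 1.12 (edgeR FDR = 1). Its CD and WD libraries overlapped, as did those of the other 6, where 2.42% of genes did not overlap. For the other 6 the log2 fold change ran from -0.23 for Gp49a to 0.30 for Pirb.

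The share of Gp49a in the pair was examined after its values had been seen. Gp49a took 69.5, 78.0, 67.3 and 71.8% of the expected counts of Gp49a and Lilrb4 in CD CD45lo libraries and 64.8, 53.4, 54.0 and 63.8% in WD CD45lo libraries. All 4 WD libraries were below all 4 CD libraries, with means of 59.0 ± 6.15% and 71.6 ± 4.61% (SD, n = 4 each). The 2-sided exact permutation test gave p = 0.0286, the smallest that 4 against 4 libraries allow, and p = 0.0571 after Benjamini-Hochberg adjustment for the pair of cell types tested. In CD45hi libraries the shares were 64.4, 71.5, 73.7 and 68.3% on CD and 73.1, 58.4 and 68.8% on WD, which overlapped (exact permutation p = 0.571, also adjusted). The adjusted values miss 0.05, the share rests on how RSEM divided shared reads, and the sum of the pair in CD45lo cells had a log2 fold change of 0.04 (95% interval -0.38 to 0.47).

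**Figure D3:**
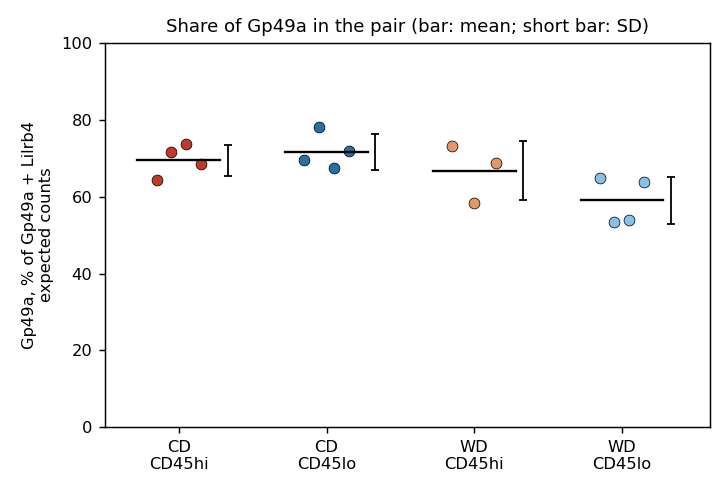
Gp49a as a percentage of the expected counts of Gp49a plus Lilrb4 in each library, with group means and SD. The 4 WD CD45lo libraries, at 53.4 to 64.8%, lie below the 4 CD CD45lo libraries, at 67.3 to 78.0%, and the diets overlap in CD45hi cells.

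Whether the step from CD45lo to CD45hi depended on diet was tested as an interaction. None of the 7 passed, where 1 of 14967 genes did (0.00668%), and none had an unadjusted p under 0.05 (edgeR FDR from 0.672 to 0.991). Lilrb4 had the largest estimate, a log2 difference of -0.56 (95% interval -1.35 to 0.24), and Gp49a one of 0.04 (-0.64 to 0.72).

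**Figure D4:**
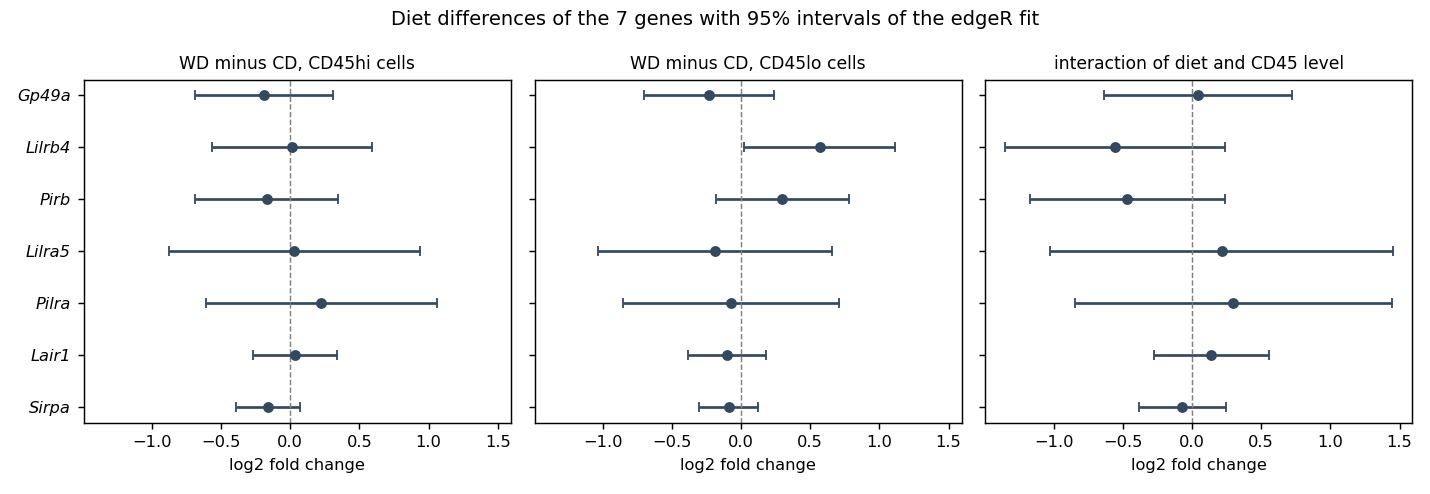
Log2 fold changes of the 7 genes for WD minus CD in CD45hi cells, in CD45lo cells, and for their difference (interaction), with 95% intervals from the edgeR fit. All intervals span 0 except that of Lilrb4 in CD45lo cells, 0.02 to 1.12, whose FDR was 1.

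The genes around these receptors were not members and were tested between the cell types with edgeR's glmTreat, which asks whether a change exceeds 1.5-fold (FDR under 0.05). Of 74 related genes found in the files 69 could be tested. In CD-fed mice 16 were higher in CD45hi cells and 0 lower, and in WD-fed mice 18 were higher and 1 lower. The background was 3.39% higher and 0.588% lower of all genes in CD-fed mice and 4.01% and 1.17% in WD-fed mice. The lists were written with earlier results of these data known. Of the higher calls 7 and 9 were close relatives of the members, most of which passed the filter on low counts through the CD45hi libraries. These totals are therefore a description and no support for a trend. Without replicate 1 or replicate 3 of WD CD45lo the count of calls in WD-fed mice was 11. In the diet comparisons and the interaction 0 of the 69 passed the FDR. The lowest edgeR FDR was 0.0718, for the integrin subunit Itgb3 in CD45hi cells. At an unadjusted p under 0.05 there were 8 in CD45hi cells, 0 in CD45lo cells and 3 for the interaction. Over all genes such a count was made in CD45lo cells only (123 of 14967), so nothing is read from the 8 or the 3.

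Close relatives of the members, which are mostly activating receptors with short tails, were the group with the most calls. All 11 were tested, 7 were higher in CD45hi cells in CD-fed mice (3.39% of all genes) and 9 in WD-fed mice (4.01%), 7 of them on both diets. Their median log2 fold change was 4.90 in CD-fed and 5.33 in WD-fed mice, beside medians of 0.04 and 0.00 over all genes tested. Apart from Pira2, Pilrb2, Sirpb1b and Sirpb1c, which also reached 1 cpm in 2 or more CD45lo libraries, they passed the filter on low counts through the CD45hi libraries, in which they are high, so this count is no support for a trend of the group. Pilrb2, the activating partner of Pilra, had 31.6 ± 15.1 cpm in CD CD45hi (SD, n = 4) and 0.952 ± 0.568 cpm in CD CD45lo cells (edgeR FDR = 0.001), and 37.3 ± 33.3 cpm (SD, n = 3) against 0.926 ± 0.824 cpm in WD-fed mice (edgeR FDR = 0.000817). Pilrb1 had 11.5 ± 11.9 against 0.195 ± 0.256 cpm (edgeR FDR = 0.0185) and 14.95 ± 14.2 against 0.346 ± 0.329 cpm (edgeR FDR = 0.0258). Its call was lost without any 1 of 4 libraries in CD-fed mice (CD45hi replicate 1 and CD45lo replicates 1 to 3, edgeR FDR 0.0539 to 0.0764) and of 5 in WD-fed mice (CD45hi replicate 1 and CD45lo replicates 1 to 4, edgeR FDR 0.0547 to 0.0911), and under both replicate blocks on each diet. Sirpb1b, a relative of Sirpa, had 19.8 ± 5.46 against 0.679 ± 0.667 cpm in CD-fed (edgeR FDR = 0.0105) and 13.6 ± 3.62 against 0.28 ± 0.412 cpm in WD-fed mice (edgeR FDR = 0.00549). Gm14548, a gene of the Pira cluster, was 38.8-fold and 32.5-fold higher (edgeR FDR = 0.0148 and 0.0209), Sirpb1c 31.9-fold and 20.1-fold (edgeR FDR = 0.0156 and 0.0322) and Pira2, an activating relative of Pirb, 15.3-fold and 7.90-fold (edgeR FDR = 0.0037 and 0.0277) in CD-fed and WD-fed mice. These calls too were lost in part. In CD-fed mice Gm14548 missed the threshold without CD CD45lo replicate 2 or 4 and Sirpb1c without CD CD45lo replicate 1 or 2 (edgeR FDR 0.0579 to 0.0627). In WD-fed mice Gm14548 missed it without WD CD45lo replicate 1, 2 or 4, Sirpb1c without WD CD45hi replicate 1 or WD CD45lo replicate 1 or 3, and Pira2 without WD CD45hi replicate 2 or WD CD45lo replicate 1, 3 or 4 (edgeR FDR 0.0519 to 0.101). With the replicate blocks the WD calls of Gm14548 (edgeR FDR 0.054 and 0.146) and Sirpb1c (0.0514 and 0.054) were lost. With only the compared groups in the fit those of Gm14548 (edgeR FDR 0.0576), Sirpb1c (0.107) and Pira2 (0.101) were lost. The WD call of Pira2 was also lost with limma-voom (adjusted p 0.113). The Sirpb1c level was 12 cpm in CD CD45hi replicate 3 and 51.4 to 54.7 cpm in the other 3 libraries, and Pira2 was at 9.42 cpm in WD CD45lo replicate 2 and at 1.29 to 2.42 cpm in the others. The log2 fold changes of the Pilrb and Sirpb1 genes, from 4.33 to 5.81, stand beside 1.297 and 1.60 for Pilra and -0.68 and -0.75 for Sirpa, a difference between genes that was not tested. The deposited counts of the 6 named relatives were not whole in 9 to 15 of the 15 libraries, so their split is uncertain. Pilrb1 had at most 12 and Gm14548 at most 20 counts in any CD45lo library, so their folds and calls rest on few reads there and are a description.

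Of the 20 signalling proteins downstream 1 passed the threshold on each diet, higher in CD45hi cells (3.39% and 4.01% of all genes). This was Fgr, a Src-family kinase of myeloid cells, at 58.2 ± 42.2 against 4.93 ± 1.79 cpm in CD-fed mice (11.8-fold, edgeR FDR = 0.000306) and 83.6 ± 35.1 against 7.15 ± 2.00 cpm in WD-fed mice (11.7-fold, edgeR FDR = 0.000407). One CD CD45hi library, replicate 4, had 121 cpm of Fgr and the other 3 had 32.1 to 42.8 cpm. The list's median log2 fold change was 0.47 and 0.44, beside 0.04 and 0.00 over all genes. Some members that did not pass had large fitted values, among them the adaptor Dok2, at log2 fold changes of 4.49 and 2.56 with no overlap on either diet, and the kinase Fyn, at 1.83 and 1.99. The docking phosphatases did not pass, with log2 fold changes of 0.03 and 0.32 for Ptpn6 (SHP-1), 0.42 and 0.33 for Ptpn11 (SHP-2) and -0.43 and -0.61 for Inpp5d (SHIP-1) in CD-fed and WD-fed mice. The adaptors Fcer1g (0.52 and 0.52) and Tyrobp (0.52 and 0.88), which encode FcRγ and DAP12, did not pass either. The test asks for more than 1.5-fold, so not passing leaves room for smaller differences. The 95% intervals of Inpp5d were -0.71 to -0.16 and -0.91 to -0.31, without overlap of libraries on either diet. Those of Fcer1g (0.14 to 0.91 and 0.11 to 0.93) and Tyrobp (0.19 to 0.85 and 0.53 to 1.23) lay above 0. Tyrobp libraries did not overlap in WD-fed mice.

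Of 20 ligands or ligand subunits tested, 5 were higher in CD45hi cells in CD-fed mice (3.39% of all genes). In WD-fed mice 4 were higher (4.01%) and 1 lower (1.17%). The list was written with earlier results known, so nothing is read from these counts. The median log2 fold changes were 0.25 and -0.03, which did not move when genes at the count floor were set at their bound. The MHC class I genes H2-K1 (2.37-fold and 3.00-fold) and H2-D1 (2.66-fold and 3.38-fold), whose products Pirb binds, were higher on both diets (edgeR FDR from 1.81e-05 to 0.00499). Apoe, a lipoprotein that has been described as a ligand of the human LILRB4 protein, was 14.1-fold and 15.6-fold higher, with 1632 ± 456 against 115 ± 24.6 cpm (SD, n = 4 each) on CD and 1709 ± 453 against 110 ± 32.9 cpm on WD (edgeR FDR = 1.64e-07 and 2.53e-07). Fibronectin (Fn1) was 6.57-fold higher in CD-fed mice (edgeR FDR = 0.00541) and did not pass in WD-fed mice (edgeR FDR = 0.102). Pianp, also on the list, was called higher on both diets (edgeR FDR = 0.0289 and 0.0421), with means of 5.31 and 6.35 cpm in CD45hi cells. It reached at most 0.459 cpm in CD45lo libraries and so passed the filter on low counts through the CD45hi libraries, in which it is high. The 1 lower call was Itgb3, the β3 chain of integrin αvβ3, 2.77-fold lower in CD45hi cells of WD-fed mice (edgeR FDR = 0.0183), with a log2 fold change of -0.36 that did not pass in CD-fed mice. Cd47, the ligand of Sirpa, had log2 fold changes of 0.16 and 0.79 and the C1q chains, ligands of Lair1, from -0.63 to 0.11, and none of these 4 passed.

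A further 18 receptors were listed as inhibitory, and their sequences were not searched for the motif. Among them 3 were higher in CD-fed mice (3.39% of all genes) and 4 in WD-fed mice (4.01%), and 0 were lower (0.588% and 1.17%). The list was written with earlier results known, so nothing is read from these counts. The median log2 fold changes were 0.17 and 0.81. Clec12a, a C-type lectin of myeloid cells, had 168 ± 79.95 against 6.88 ± 5.06 cpm in CD-fed mice and 86.7 ± 46.2 against 5.65 ± 3.78 cpm in WD-fed mice (edgeR FDR = 0.000299 and 0.00137). Cd300lf was 27.9-fold higher in CD-fed mice (edgeR FDR = 0.001) and 7.41-fold higher in WD-fed mice (edgeR FDR = 0.0369). Its call in WD-fed mice was lost without any 1 of 6 libraries (CD CD45lo replicate 2, WD CD45hi replicates 2 and 3, WD CD45lo replicates 1, 3 and 4, edgeR FDR 0.0502 to 0.11), with the replicate block by file numbers (edgeR FDR 0.17), with limma-voom (adjusted p 0.209) and with only the compared groups in the fit (edgeR FDR 0.0525). Milr1, first described on mast cells, was 4.01-fold and 4.70-fold higher (edgeR FDR = 0.0112 and 0.00566), with calls that were lost under limma-voom on both diets (adjusted p 0.0784 and 0.0519) and in WD-fed mice with the replicate block by file numbers (edgeR FDR 0.0581). Some receptors that did not pass had no overlap of libraries on either diet. Vsir was lower, at log2 fold changes of -0.86 and -0.73 (95% intervals -1.16 to -0.57 and -1.05 to -0.41), and Cd72 higher, at 2.24 and 2.21. In WD-fed mice alone Cd33 and Siglece lay below and Pdcd1 above without overlap, and did not pass.

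**Figure D5:**
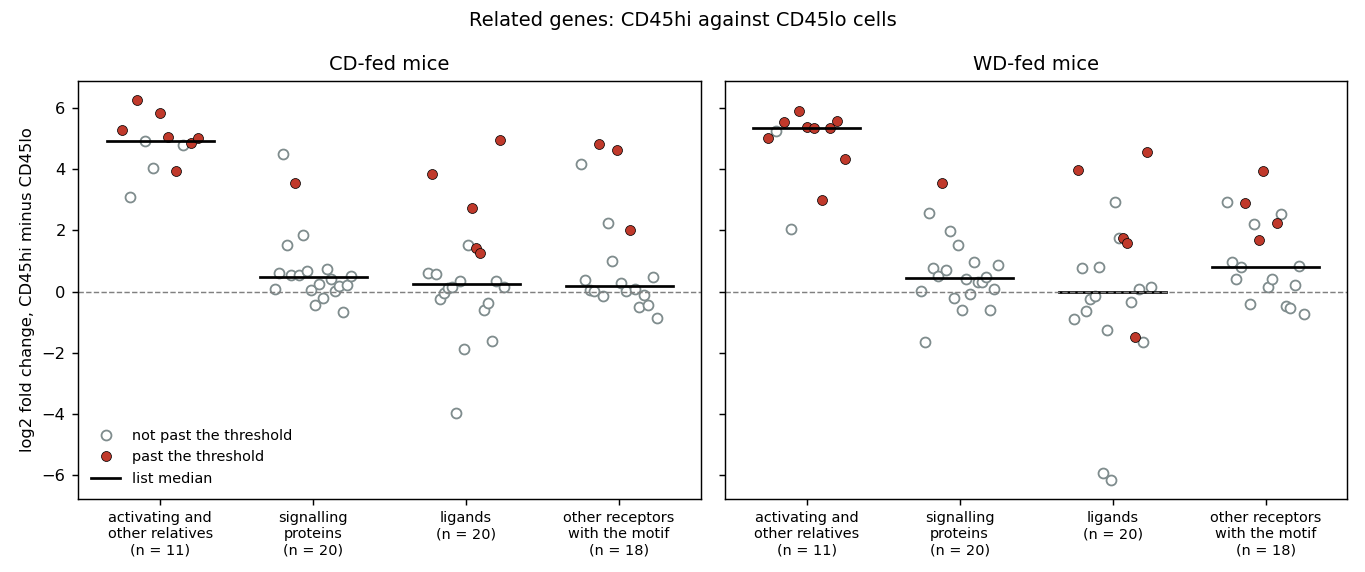
Log2 fold change of each related gene between CD45hi and CD45lo cells in CD-fed and WD-fed mice, by list, with filled points past the glmTreat threshold and bars at list medians. The relatives of the 7 genes have medians of 4.90 and 5.33, while the signalling proteins have medians of 0.47 and 0.44.

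The genes whose pattern over the 15 libraries was most like each receptor were found by the root mean square (RMS) difference of log2 cpm, each gene centred on its own mean, among 8246 genes of at least 10 cpm. The RMS is not scaled by how much a gene varies. It is smaller for genes with a small step between the cell types, such as Lair1 and Sirpa, and is not compared between receptors. Lair1 was most like Cd53, a tetraspanin of leukocytes, at an RMS of 0.08, followed by Fcgr3 and Rap1gds1. Sirpa was most like Itgb5 (0.12), Csf1r, the receptor that microglia need to survive, and Mtus1. Lilrb4 was most like Axl (0.29), a receptor for dying cells, then C4b and Apoe, and Gp49a was most like C4b (0.42), S100a11 and Siglec1. Between Gp49a and Lilrb4 the RMS was 0.44, a value that rests in part on how their shared reads were split. The genes named for each receptor are the closest of 8246 searched. Their smaller values beside this single pair therefore carry no conclusion. Pirb was most like Tgfbi (0.32), Fgl2 and Cebpb, Lilra5 most like Rhbdf2 (0.33), Mrpl4 and Cd14, and Pilra most like Cdk2ap2 (0.29), Sdc4 and Tmcc1. Part of each likeness comes from the contrast of CD45hi and CD45lo libraries that all these genes share.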

How the data were processed

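The authors trimmed 75-base paired-end reads of poly(A)-selected libraries and quantified them with RSEM 1.2.12 against mm10. They deposited an expected count, TPM and FPKM per gene and library. The expected count is an estimate that is not normalized. FPKM was not used here. The library kit does not mark strand. Expected counts were rounded, and the 14967 of 38924 genes that reached 1 cpm in 2 or more libraries were kept. After TMM scaling, the 4 groups entered 1 quasi-likelihood model in its legacy form (edgeR 4.0.16, R 4.3.3). The unit cpm is counts scaled to a library of 1e6. Diets were compared with glmQLFTest, and the related genes between cell types with glmTreat at 1.5-fold. FDR is the Benjamini-Hochberg value over all genes tested. The members and lists were chosen with earlier results of these data known. Related genes were named by rule: of each list the 3 highest and 3 lowest log2 fold changes in WD-fed mice among genes past the threshold on both diets whose higher group reached 10 cpm, and any past the FDR for diet or interaction. The likeness rule is given with its result. Itgb3, Fn1, Pianp, Dok2, Fyn, Vsir, Cd72, Cd33, Siglece, Pdcd1, the docking phosphatases, the adaptors, Cd47 and the C1q chains were named after their values were seen. Positions and coding sequences are those of GENCODE M21 on mm10, matched by transcript identifiers. Of 18 listed relatives, 11 were found in the files by symbol. Libraries of a group differed by more than sampling noise (chi-square per degree of freedom 20.6 to 135 over 21 pairs), and each entered as its own sample. The code was tested on simulated counts. Alternatives were DESeq2 1.42.0, limma-voom (limma 3.58.1), other filters and scalings, replicate blocks and leaving out each library. Share alternatives for the Gp49a and Lilrb4 pair were added after seeing the data.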

Additional observations from a re-analysis of the deposited data

Results flagged for a closer look

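In 6 of 60 groups of 4 libraries examined, over the 7 genes and the 13 related genes named by rule, 1 library stood apart from the other 3 by Dixon's criterion, which marks about 1 group in 20 by chance. Gp49a had 42.8 cpm in replicate 4 of WD CD45lo against 25.1 to 27.3 cpm in the others. That library also had the lowest summed level of the 6 microglia markers among the CD45lo libraries, 10698 cpm, and the lowest monocyte (46.4 cpm) but highest neutrophil (830 cpm), dendritic (31.2 cpm) and lymphocyte (376 cpm) sums of its group, and their part was not tested. Lilra5 had 11.3 cpm in replicate 1 of WD CD45lo against 12.6 to 12.8 cpm, a small gap in a tight group. Lair1 had 701 cpm in replicate 3 of CD CD45hi against 465 to 489 cpm. That library had the highest microglia (6060 cpm against 5103 to 5644 cpm) and lymphocyte (494 cpm) sums of its group. It had the lowest neutrophil, monocyte and dendritic sums, and none of these was tested as a cause. Fgr had 121 cpm in replicate 4 of CD CD45hi against 32.1 to 42.8 cpm. Sirpb1c had 12 cpm in replicate 3 of CD CD45hi against 51.4 to 54.7 cpm, and Pira2 had 9.42 cpm in replicate 2 of WD CD45lo against 1.29 to 2.42 cpm.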

How the results depend on the processing

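None of the 7 genes passed an FDR of 0.05 for diet or interaction under any alternative run, the lowest adjusted p being 0.32 for Gp49a in CD45hi cells without replicate 3 of WD CD45hi. Several of these log2 fold changes, all near 0, changed sign, and the cause was not tested. Leaving out 1 library moved the diet difference in CD45hi cells from -0.15 to 0.27 for Lilrb4, from -0.36 to 0.0177 for Pirb, from -0.66 to 0.34 for Lilra5, from -0.10 to 0.46 for Pilra and from -0.0422 to 0.20 for Lair1. It moved that of Pilra in CD45lo cells from -0.21 to 0.11, and the interaction from -0.22 to 0.25 for Gp49a, from -0.47 to 0.53 for Lilra5 and from -0.0224 to 0.54 for Pilra. With limma-voom the CD45hi diet difference was -0.00101 for Lilrb4 and -0.0517 for Lilra5. With Gp49a and Lilrb4 summed, the value standing for Lilrb4 in CD45hi cells was -0.13, for Gp49a in CD45lo cells 0.044 and for the Gp49a interaction -0.17.
Same-numbered CD45hi and CD45lo libraries did not deviate together (7 pairs, correlations of -0.02 to 0.07 by sample titles and -0.000466 to 0.07 by file numbers, 0 over 0.1), so the numbers were not taken to pair the samples, though the correlations do not show that the mice differed. With the replicate block by titles the Lilra5 diet difference in CD45hi cells was -0.12, and with the block by file numbers the Gp49a interaction was -0.0205. Related genes called in WD-fed mice numbered 19 as reported, 11 with the replicate block by file numbers, 11 with only the compared groups in the fit, and 11 to 19 without 1 library. In CD-fed mice they numbered 16, with 12 to 18 without 1 library. The share of Gp49a in the pair differed between diets by -14.6 to -10.5 percentage points in CD45lo and by -5.92 to 1.46 in CD45hi libraries when 1 library was left out.
Over all genes the diet calls in CD45hi cells numbered 38, but 1003 with DESeq2, 252 with edgeR's current form, 69 with at least 1 cpm in 4 libraries, 2 with the block by titles, 0 with only the compared groups, and 1 to 286 without 1 library. In CD45lo cells DESeq2 called 4 genes and edgeR 0. For the interaction DESeq2 called 188 genes, edgeR 1, limma-voom 0 and both blocks 0. Counts of Lilra5 and Pilra ran from 166 to 1171 per library and those of Lair1 and Sirpa from 5663 to 30674, so the former carry more counting error, and groups of 3 or 4 libraries limit the precision of all 7.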
